A study of Mus musculus with 12 samples.

Results

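The gammaretrovirus-related endogenous retroviruses of the mouse ERV1 family were followed through the TOTAL, INPUT, Beads Only (BO) and IP samples of *Mael*-/- testes. Members were taken by name: every repeat of the ERV1 family whose name begins with MuLV, MuRRS, MMVL30, LTRIS, RLTR4 or RLTR6. The rule gave 27 of 1528 repeat subfamilies and 2918 of 781935 repeat loci, out of 143 subfamilies and 12632 loci of ERV1 as a whole. The names formed 4 sets. The VL30 set held 5 subfamilies and 1002 loci, the MuLV set 3 subfamilies and 243 loci, and the MuRRS set 11 subfamilies and 1201 loci. A further 8 subfamilies with 472 loci (RLTR41, RLTR41A2, RLTR41B, RLTR41C, RLTR47_MM, RLTR48A, RLTR48B and RLTR48C) entered only because their names start with RLTR4, and are called here the other names. Another 18 names that fit the same letters belong to families other than ERV1 and were left out. The tables carry no divergence from consensus, so the age of the copies was not examined.

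All 12 RNA-seq libraries came from testes of C57BL/6 *Mael*-/- mice at 3 months, and no wild-type library entered. TOTAL is the clarified testicular extract after addition of 10 mM EDTA, which takes ribosomes apart. INPUT is the pool of sucrose gradient fractions 5 to 8 of that extract, IP is the RNA recovered from INPUT with beads carrying an antibody to L1 ORF1p, and BO is the RNA recovered from INPUT with beads that carry no antibody. Each group had 3 libraries, numbered as replicates, and the labels do not say whether libraries of the same number share animals. The comparisons ask which RNAs are enriched in ORF1p complexes over beads, over the gradient pool and over the whole extract. As in any bulk sample, fewer cells of a type and less RNA per cell cannot be told apart.

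Gammaretroviruses are simple retroviruses whose provirus has *gag*, *pol* and *env* genes between a pair of long terminal repeats (LTRs), and the LTR carries the promoter. Annotation splits a provirus into an internal part, named with the ending -int, and its LTRs, and many LTRs stand alone in the genome after recombination between the ends. MuLV elements, with RLTR4 LTRs, are the endogenous murine leukemia viruses and include copies with intact genes. VL30 elements (MMVL30-int, with RLTR6 LTRs) encode no viral proteins of their own, but their RNA is packaged into leukemia virus particles. MuRRS elements (MuRRS-int, with LTRs of the LTRIS type) are defective retrovirus-related sequences. L1 ORF1p is the RNA-binding protein that LINE-1 encodes; it prefers the RNA it was translated from but also binds other RNAs.

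The values are upper-quartile normalized counts per subfamily, from which whole reads could be recovered. They describe the make-up of each library and not the amount of RNA recovered. For BO the authors used whatever RNA came in the volume taken for IP. A value lower in IP than in BO therefore does not mean that less of that RNA was recovered with the antibody. Reads on repeat subfamilies numbered 6021800 to 7282171 per library in TOTAL, 3045169 to 3880641 in INPUT, 1712212 to 3512997 in BO and 1384904 to 2003193 in IP, so the IP values rest on the fewest reads. Reads on the members themselves ranged from 26340 to 31261 in IP and from 57672 to 108590 in TOTAL. The 7SL RNA took 38.1 to 51.6% of the repeat reads in TOTAL and at most 1.63% in IP, and BO replicate 3 stood apart with 52.1% of its reads on large subunit ribosomal RNA. The upper-quartile scale does not follow such abundant RNAs, whereas scaling to library totals does. It would move the median log2 fold change of all 1180 tested subfamilies to 0.36 for IP against BO, 0.47 for IP against INPUT, 1.49 for IP against TOTAL and 1.03 for INPUT against TOTAL. Directions below are on the upper-quartile scale. Those that this other scaling turns are named for the members followed under it, and further members turned unnamed.

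VL30 RNA was the bulk of the member RNA. Its subfamilies MMVL30-int and RLTR6_Mm were lower in IP than in BO and TOTAL. On the scale of library totals the calls against BO were lost and the direction against TOTAL turned. The calls against BO were also lost when scaled to the other LTR subfamilies. RNA of MuRRS-int and of the LTR LTRIS_Mm was higher in IP than in every other group. VL30 subfamilies took 62.8 to 64.1% of member reads in the IP libraries and 68.2 to 85.6% in the other 9. MuRRS subfamilies took 14.9 to 15.2% of member reads in IP and 3.62 to 6.71% in the other libraries. IP does not overlap with the other libraries in either share, but the shares add up to a whole, so one cannot rise without a fall elsewhere. Among member reads outside MuRRS, VL30 took 73.8 to 75.3% in IP, 72.7 to 75.9% in INPUT, 73.9 to 82.7% in TOTAL and 86.0 to 88.8% in BO, so that IP stood apart from BO alone. MuLV subfamilies took 18.4 to 18.9% in IP, inside the range of the other libraries, which ran from 9.54 to 23.6%. Members together made up 6.18% ± 0.47 (SD, n = 3) of all LTR reads in IP, 8.18% ± 1.37 in BO, 8.71% ± 0.46 in INPUT and 11.7% ± 0.34 in TOTAL. Of all repeat reads they took 1.56 to 2.06% in IP, 1.42 to 3.14% in BO, 1.82 to 1.89% in INPUT and 0.93 to 1.49% in TOTAL. The order of the groups thus depends on which reads are taken as the whole.

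**Figure D1:**
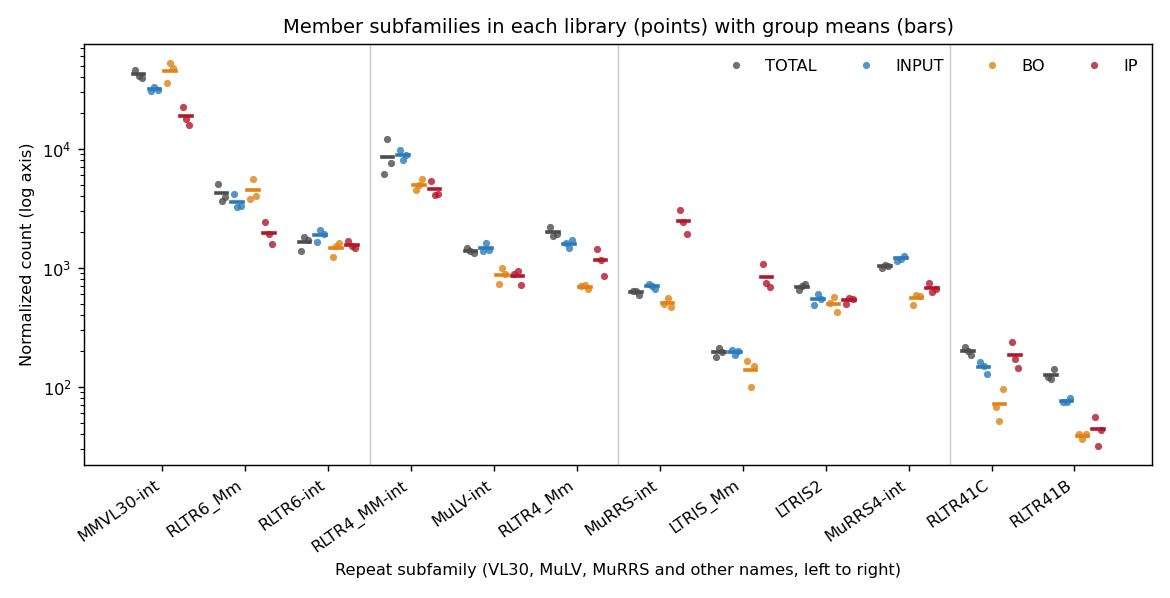
Normalized counts of 12 member subfamilies (log axis) in the 3 libraries of TOTAL, INPUT, BO and IP, with points for libraries and bars for group means. MuRRS-int and LTRIS_Mm stand higher in all 3 IP libraries than in the other 9, and MMVL30-int and RLTR6_Mm stand lower; scaled to library totals, the last pair would be higher in IP than in TOTAL.

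MMVL30-int, the internal part of VL30, had normalized counts of 46019, 40860 and 39661 in TOTAL replicates 1 to 3 and 30780, 33028 and 31259 in INPUT. In BO they were 36076, 52515 and 47566. In IP they were 22601, 17767 and 15998. On the upper-quartile scale every IP library lay below all 9 others. In the limma fit of all 4 groups, the log2 fold change of IP against BO was -1.27 ± 0.14 (SE), with an adjusted p of 4.13e-05, and that of IP against TOTAL was -1.18 ± 0.14, with an adjusted p of 0.000159. Against INPUT it was -0.77 (95% interval -1.08 to -0.45, limma adjusted p = 0.00216), short of the 2-fold threshold for a call. BO against INPUT gave 0.50 (limma adjusted p = 0.0215), also short of it.

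RLTR6_Mm, the LTR of VL30, followed its internal part. Its normalized counts were 5105, 3659 and 3929 in TOTAL, 4208, 3239 and 3327 in INPUT, and 3814, 5579 and 4046 in BO. In IP they were 2411, 1919 and 1580, again below the 9 other libraries. The log2 fold change was -1.19 ± 0.19 against BO and -1.11 ± 0.19 against TOTAL, with limma adjusted p of 0.000442 and 0.00135. Against INPUT it was -0.88 (limma adjusted p = 0.00441), no call, and became a call without IP replicate 1 (-1.03). Scaled to library totals, IP against TOTAL turned to 0.37 for MMVL30-int and 0.44 for RLTR6_Mm, both under the 1.49 of the median subfamily, and the calls against BO were lost at -0.77 and -0.69. Scaled to the LTR subfamilies that are not members, the calls against BO were also lost, at -0.90 and -0.81. The call of RLTR6_Mm against TOTAL was lost without TOTAL replicate 1 (-0.97) or without IP replicate 3 (-0.96). Without BO replicate 3, the values against BO were -1.23 for MMVL30-int and -1.25 for RLTR6_Mm.

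The other VL30 subfamilies had no call between IP and BO, INPUT or TOTAL. RLTR6-int, a related internal part, had normalized counts of 1246, 1521 and 1612 in BO and 1686, 1534 and 1456 in IP. These groups overlapped, and the log2 fold change was 0.10 with a 95% interval of -0.18 to 0.38. The LTR RLTR6B_Mm had a log2 fold change of -0.67 for IP against BO (limma adjusted p = 0.0415), no call, which became -0.37 without BO replicate 1 and -0.96 without BO replicate 3. RLTR6C_Mm, with a mean of 50.6 in IP and 51.9 in BO, varied from 20.5 to 103 among the IP libraries, and its interval for IP against BO reached from -1.62 to 1.38. Against TOTAL it had -1.17 with an interval of -2.67 to 0.34 (limma adjusted p = 0.256), and from -1.85 to -0.72 with single libraries left out, while RLTR6-int had -0.06 and RLTR6B_Mm -0.40. Library totals turned these to 0.35, 1.49 and 1.13.

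On the upper-quartile scale, the internal parts of MuLV were lower in IP than in INPUT and TOTAL, though by less than the 2-fold of a call. RLTR4_MM-int, an internal part of MuLV type and the second most abundant member, had normalized counts of 6130, 12012 and 7673 in TOTAL and 9737, 8052 and 8822 in INPUT. In BO they were 4521, 4941 and 5536. In IP they were 5404, 4111 and 4188. The BO and IP values overlapped. On the upper-quartile scale both lay below every TOTAL and INPUT library. MuLV-int, the internal part of the leukemia viruses, behaved alike, with 734, 1006 and 882 in BO and 888, 944 and 714 in IP, against 1374 to 1629 in INPUT. IP against BO gave -0.14 (95% interval -0.57 to 0.30) for RLTR4_MM-int and -0.04 (-0.32 to 0.24) for MuLV-int, and both signs turn under several other settings. IP against INPUT gave -0.96 and -0.80, with limma adjusted p of 0.00381 and 0.000745, and neither reached 2-fold. RLTR4_MM-int became a call against INPUT without INPUT replicate 2 (-1.03) or IP replicate 1 (-1.09), and against TOTAL without TOTAL replicate 1 (-1.08). Scaled to library totals, these became -0.42 and -0.26, and IP against TOTAL turned from -0.87 and -0.73 to 0.68 and 0.82 (limma adjusted p = 0.0479 and 0.0178).

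RLTR4_Mm, the MuLV LTR, parted from the internal parts in the comparison of IP with BO. It had 701, 721 and 669 in BO and 1444, 1169 and 852 in IP, with no overlap, 1462 to 1722 in INPUT and 1843 to 2192 in TOTAL. IP was lower than INPUT and TOTAL by -0.50 and -0.82 (limma adjusted p = 0.0279 and 0.00262), neither a call. Library totals turned these to 0.042 and 0.73. The log2 fold change was 0.70 for IP against BO (limma adjusted p = 0.00379), no call, and -1.20 for BO against INPUT (limma adjusted p = 0.000208), a call. Scaled to library totals or to the other LTR subfamilies, IP against BO was 1.19 or 1.07 and became a call.

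Within MuRRS, the internal part MuRRS-int and the LTR LTRIS_Mm were called higher in IP against all 3 other groups. MuRRS-int had normalized counts of 645, 644 and 588 in TOTAL, 727, 704 and 664 in INPUT, and 496, 562 and 467 in BO. In IP it had 3086, 2448 and 1926. LTRIS_Mm had 177, 212 and 198 in TOTAL, 205, 184 and 199 in INPUT, and 164, 100.2 and 151 in BO. In IP it had 1072, 746 and 689. For both, the lowest IP library was higher than the highest of the 9 others, and the IP libraries held 5985 and 2018 reads on them in all.

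The log2 fold changes of MuRRS-int were 2.27 ± 0.14 against BO, 1.80 ± 0.14 against INPUT and 1.96 ± 0.14 against TOTAL, with limma adjusted p of 2.91e-07, 3.83e-06 and 2.08e-06. Those of LTRIS_Mm were 2.59 ± 0.19, 2.06 ± 0.19 and 2.07 ± 0.19, with limma adjusted p of 1.73e-06, 2.19e-05 and 1.66e-05. Both stayed called in each of the 3 comparisons under all 17 alternatives, including each scaling and each library of the compared groups left out in turn. For scale, L1Md_T, a young LINE-1 subfamily, had 1.87 for IP against INPUT, and MMERVK10C-int, an endogenous retrovirus of another class, had 1.79.

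The remaining MuRRS subfamilies gave a different picture. LTRIS2 had normalized counts of 502, 569 and 430 in BO and 500.1, 562 and 547 in IP, and LTRIS_Mus had 484 to 610 in IP against 467 to 553 in BO. MuRRS4-int was at 741, 626 and 670 in IP, between BO (489, 595 and 584) and INPUT (1147, 1198 and 1267), with no overlap among the 3 groups. Its log2 fold change was 0.29 against BO and -0.83 against INPUT, neither of them 2-fold, while BO against INPUT gave -1.12 (limma adjusted p = 8.09e-06), a call. LTRIS4B, a rare LTR with 101 reads in the IP libraries and 37 in BO, had 12.5, 9.11 and 16.0 in BO and 35.3, 29.4 and 52.7 in IP. It rose by 1.56 ± 0.42 on the log2 scale against BO (limma adjusted p = 0.0118). In INPUT it had 11.3, 20.4 and 18.1, and in TOTAL 13.0, 35.1 and 37.2, which overlapped with IP. IP against TOTAL gave 0.54 (limma adjusted p = 0.394), no call, and 0.070 to 0.79 with single libraries left out. Library totals made it a call at 2.03 (limma adjusted p = 0.000141). Against INPUT it had 1.19 with an adjusted p of 0.051 in limma, no call by a narrow margin. It was a call there with edgeR (1.28, adjusted p = 0.0396), DESeq2 (1.31, adjusted p = 0.0151), the median ratio, library totals, the compared groups alone or the replicate block. LTRIS3, LTRIS4A, LTRIS5 and LTRIS6 ranged from 11.8 to 99.7 over the 12 libraries and had no call in any comparison. LTRIS4 was lower in BO than in INPUT by a log2 fold change of -1.18, a call lost on library totals (-1.13, limma adjusted p = 0.0688). It had -0.98 for IP against INPUT, just inside 2-fold, and became a call without INPUT replicate 2 (-1.02) or IP replicate 2 (-1.15).

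Among the other names, RLTR41C, an LTR by its name, had 67.9, 52.0 and 96.2 in BO and 237, 173 and 143 in IP. These groups do not overlap, and the log2 fold change was 1.36 ± 0.22 (limma adjusted p = 0.000585). In TOTAL it had 218, 202 and 185, so the IP libraries spanned the TOTAL level, and BO stood apart from INPUT by -1.06 (limma adjusted p = 0.00385). That call was lost with a pseudocount of 10 (-0.97), on library totals (-1.01, limma adjusted p = 0.0661), without INPUT replicate 1 (-0.99) and without BO replicate 2 (-0.85). RLTR41B had 122, 116 and 140 in TOTAL, 74.2, 75.1 and 80.1 in INPUT, 40.5, 36.4 and 40.1 in BO, and 55.9, 32.0 and 43.9 in IP. It was lower in IP than in TOTAL by a log2 fold change of -1.53 ± 0.19 (limma adjusted p = 0.000165) and overlapped with BO. Scaled to library totals the difference from TOTAL was -0.0050 (limma adjusted p = 0.989). RLTR48B was lower in BO than in INPUT by -1.06 (limma adjusted p = 0.00782), a call lost without BO replicate 3 (-0.80), with a pseudocount of 10 (-0.97) and on library totals (-1.01, limma adjusted p = 0.161). RLTR41, RLTR41A2, RLTR48A and RLTR48C ranged from 41.6 to 387 and had no call in any comparison. RLTR47_MM, with 1.3 to 6.2 per library and a mean of 3.94, was below the minimum mean of 10 and was not tested.

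Over the 26 tested members, IP against BO gave 4 higher (MuRRS-int, LTRIS_Mm, LTRIS4B and RLTR41C), against 5.08% of all subfamilies called higher, and 2 lower (MMVL30-int and RLTR6_Mm), against 3.81%. Scaled to library totals the split was 6 higher and 0 lower, beside 10.6% and 1.44% of all subfamilies, and scaled to the other LTR subfamilies 5 and 0, beside 9.15% and 1.78%. IP against INPUT gave 2 higher (MuRRS-int and LTRIS_Mm; 3.22% of all subfamilies) and 0 lower (2.88%), where leaving out single libraries gave 0 to 3 lower. IP against TOTAL gave 2 higher (again MuRRS-int and LTRIS_Mm; 2.88%) and 3 lower (MMVL30-int, RLTR6_Mm and RLTR41B; 3.47%), which became 16 and 0 when scaled to library totals, where 85.7% of all subfamilies were higher and 1.44% lower. The median log2 fold change of the members was 0.12, -0.27 and -0.39 in these comparisons, and that of all subfamilies -0.12, -0.06 and -0.05. The 3 comparisons share the IP libraries, so their calls are not independent of each other.

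The bead sample itself differed from INPUT. BO against INPUT gave 0 members higher (2.63% of all subfamilies) and 5 lower (2.8%), namely RLTR4_Mm, LTRIS4, MuRRS4-int, RLTR41C and RLTR48B. RLTR41B was just inside 2-fold, at -0.95 (limma adjusted p = 0.00302). It became a call with edgeR (-1.04), with DESeq2 (-1.01) and scaled to the other LTR subfamilies (-1.23). Of the 26 members 12 had an adjusted p under 0.05 in limma, beside 28.9% of all subfamilies, and the member median was -0.38 against 0.03 over all subfamilies. INPUT against TOTAL gave 0 members higher (0% of all subfamilies) and 0 lower (0.339%) in limma. There 7 members had an unadjusted p under 0.05 (17% of all subfamilies), with 1 of them past 2-fold (1.36%), and edgeR and DESeq2 on the recovered reads also made 0 calls. Scaled to library totals, 11 members would be higher in INPUT than in TOTAL, beside 53.7% of all subfamilies.

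**Figure D2:**
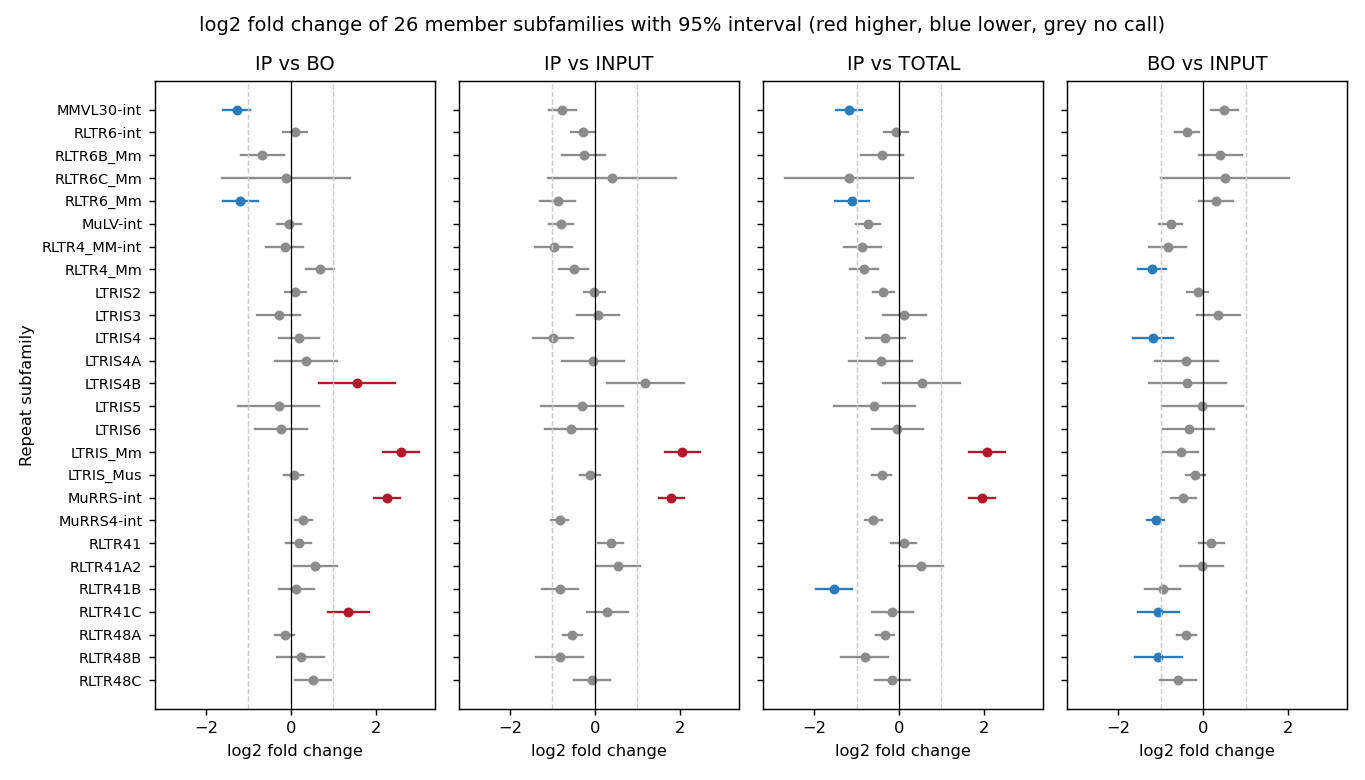
The log2 fold change of each of the 26 tested members in 4 comparisons, with points for the limma estimate and lines for the 95% interval; calls are red (higher) or blue (lower) and dashed lines mark 2-fold. MuRRS-int and LTRIS_Mm lie near 2 in the 3 IP panels, whereas MMVL30-int and RLTR6_Mm lie at or below -0.77, on a scale where the median subfamily is at -0.05 in the IP vs TOTAL panel and library totals would put it at 1.49.

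The ratio of an internal part to an LTR of its set within a library needs no scaling between libraries. For MMVL30-int to RLTR6_Mm the log2 ratio was 3.23, 3.21 and 3.34 in IP, 2.87, 3.35 and 3.23 in INPUT, and 3.24, 3.23 and 3.56 in BO. These groups overlap, with a difference of 0.11 ± 0.15 (SE) between IP and INPUT (exact two-sided permutation test, p = 0.9). For MuLV-int to RLTR4_Mm it was -0.70, -0.31 and -0.25 in IP and 0.07, 0.48 and 0.40 in BO, with no overlap and a difference of -0.74 ± 0.19. From INPUT the difference was -0.30 ± 0.20, with overlapping groups (exact two-sided permutation test, p = 0.2). For MuRRS-int to LTRIS2 it was 2.62, 2.12 and 1.81 in IP, 0.59, 0.23 and 0.28 in INPUT, and -0.02, -0.02 and 0.12 in BO. The differences were 1.82 ± 0.26 from INPUT and 2.16 ± 0.24 from BO.

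Paired instead with LTRIS_Mm, a pairing chosen after the values were seen, MuRRS-int had log2 ratios of 1.52, 1.71 and 1.48 in IP and 1.82, 1.93 and 1.74 in INPUT. The difference was -0.26 ± 0.09, and the BO ratios of 1.59, 2.48 and 1.62 overlapped with IP. RLTR4_MM-int to RLTR4_Mm, also added later, was 1.90, 1.81 and 2.30 in IP, below each BO library (2.69, 2.78 and 3.05). With 3 libraries against 3 the exact permutation test cannot go below p = 0.1, which the separated groups reached. Over the 10 differences tested the smallest adjusted p was 0.167, so none passes.

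At the level of single loci the tables give the authors' mean per group, without values per library, so there is no error and no test. Loci are named there by subfamily and a running number, and each table was normalized on its own. Of the 2918 member loci 1817 to 1993 had any signal in a table, and 110 (IP and BO), 122 (IP and INPUT) or 121 (IP and TOTAL) had a mean of at least 10 over both groups. Of these 110, 5 were more than 2-fold higher in IP than in BO and 76 more than 2-fold lower, against 17.2% and 47.7% of all repeat loci. Of the 122, 7 were higher and 58 lower than in INPUT, against 22.1% and 31.2%. Of the 121, 10 were higher and 68 lower than in TOTAL, against 24.1% and 24.3%. In each comparison, many of the lower member loci had an IP mean under 10 and passed only through the other group. Some of the higher member loci passed only through IP. The filter fixed the direction of all such loci, so these member counts are a description. Centred on the median repeat locus, whose log2 ratio was -0.90, -0.25 and 0.01, the counts were 17 higher and 44 lower for BO, 10 and 38 for INPUT, and 10 and 69 for TOTAL. The shares of all repeat loci after that centring were not counted, so these counts have no background beside them. Without centring, the shares lower among ERV1 loci that are not members were 40.3%, 21.8% and 9.20%.

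**Figure D3:**
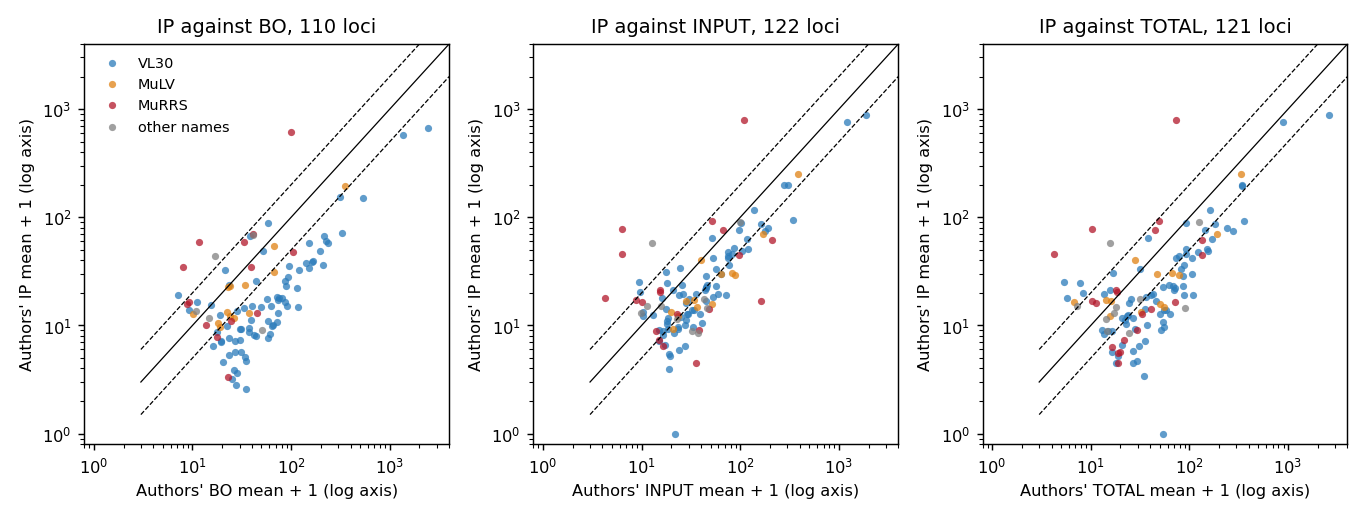
Authors' mean of each member locus in IP (vertical) and in BO, INPUT or TOTAL (horizontal), log axes, for loci with a mean of at least 10; the solid line marks equality and dashed lines 2-fold. VL30 loci lie mostly below equality, and the highest MuRRS point in each panel is MuRRS-int_196; the panels have separate normalizations, and in the BO panel the median of all repeat loci is itself at -0.90.

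VL30 loci were the bulk of the loci examined. Of 78 with a mean of at least 10, 67 were more than 2-fold lower in IP than in BO, beside 47.7% of all repeat loci. Many of the 67 had an IP mean under 10 and passed only through BO, so that the filter fixed their direction. Of 79, 39 were lower than in INPUT, beside 31.2%, and of 78, 49 were lower than in TOTAL, beside 24.3%. Many of these likewise passed only through INPUT or TOTAL, so the counts of lower VL30 loci are a description. The VL30 locus with the highest IP mean was MMVL30-int_752, at 880 in IP and 1864 in INPUT (log2 ratio -1.08). It took 24.0% of the summed MMVL30-int locus signal in IP, 27.0% in INPUT and 30.3% in TOTAL. MMVL30-int_169 followed at 755 and 1207 (-0.68), and MMVL30-int_260 at 200 and 277 (-0.47). Without the top locus the summed MMVL30-int ratio of IP to INPUT was -0.86 against -0.92 with it, so no single copy set the value. The LTR locus RLTR6_Mm_166, at 92.6 in IP and 343 in INPUT (-1.88), held 52.3% of the RLTR6_Mm locus signal in IP and 70.1% in INPUT. Without it the summed RLTR6_Mm ratio of IP was -0.78 to INPUT in place of -1.46, -0.42 to TOTAL in place of -1.41 and -1.17 to BO in place of -1.80. The internal locus RLTR6-int_894 went slightly the other way, with 63.1 in IP and 50.9 in INPUT (0.30), but it was at -0.10 against BO.

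MuRRS loci were fewer. Of 20 with a mean of at least 10, 4 were more than 2-fold higher in IP than in INPUT and 8 more than 2-fold lower, beside 22.1% and 31.2% of all repeat loci. The 4 were MuRRS-int_196, LTRIS_Mus_64, LTRIS_Mm_264 and LTRIS3_74, and the last 3 reached a mean of 10 only through IP, so that the filter fixed their direction. Against TOTAL 3 of 20 were higher and 11 lower, beside 24.1% and 24.3%, with a median log2 ratio of -1.25. Against BO 3 of 14 were higher and 5 lower, beside 17.2% and 47.7%. Those higher were again MuRRS-int_196, LTRIS_Mus_64 and LTRIS_Mm_264. In each of the 3 comparisons, some of the lower loci had an IP mean under 10 and passed only through the other group. The filter fixed their direction too, and the median of -1.25 against TOTAL includes them. MuRRS-int_196 had a mean of 796 in IP and 109 in INPUT (2.85), 608 and 98.4 in the table with BO (2.61), and 795 and 72.6 in the table with TOTAL (3.43). It held 79.3% of the summed MuRRS-int locus signal in IP, but 38.8% in INPUT, 51.2% in BO and 32.5% in TOTAL. With this locus the summed MuRRS-int signal had log2 ratios of 1.83 to INPUT, 1.99 to BO and 2.16 to TOTAL. Without it, an alternative added after the values were seen, they were 0.27, 0.75 and 0.46. The 4 other MuRRS-int loci with a mean of at least 10 in the INPUT table lay within 2-fold. One locus thus carried most of the MuRRS-int difference among the reads that the locus table assigns.

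**Figure D4:**
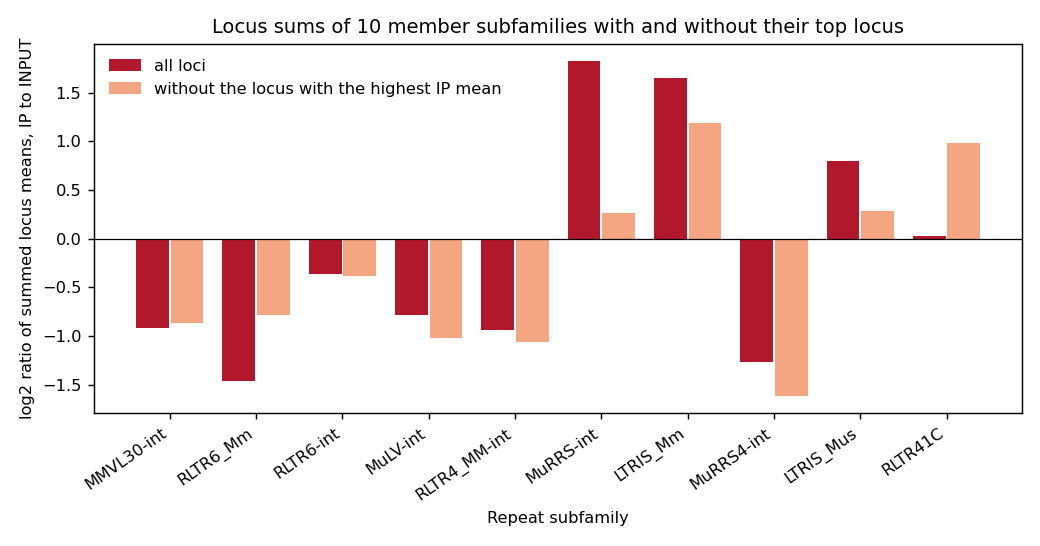
The log2 ratio of summed locus means, IP to INPUT, for 10 member subfamilies, over all loci (dark bars) and without the locus with the highest IP mean (light bars), from the authors' group means. MuRRS-int drops from 1.83 to 0.27, whereas MMVL30-int barely moves, from -0.92 to -0.86.

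The ratios of the LTR loci that passed through IP are a description. LTRIS_Mus_64 had 76.3 in IP and 5.30 in INPUT (3.62), and LTRIS_Mm_264 had a log2 ratio of 2.85 to INPUT and held 37.7% of the LTRIS_Mm locus signal in IP. Without it the summed LTRIS_Mm ratio was still 1.19, against 1.65 with it. In the opposite direction, MuRRS4-int_402 had 15.8 in IP and 162 in INPUT (-3.28), and MuRRS4-int_401 had 61.1 and 209 (-1.76). MuRRS4-int_284 was higher, at 90.8 and 50.6 (0.83). Whether these LTR and internal loci lie in the same provirus was not examined, because the locus names carry no coordinates.

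MuLV loci ran mostly below INPUT, with a median log2 ratio of -1.10 beside -0.25 for all repeat loci. Of 13 with a mean of at least 10, 7 were more than 2-fold lower in IP than in INPUT and 0 were higher, beside 31.2% and 22.1% of all repeat loci. Against BO 3 of 13 were lower and 0 higher, beside 47.7% and 17.2%. Against TOTAL 6 of 13 were lower and 1 higher, beside 24.3% and 24.1%. Here too the filter fixes the direction of any locus that passes through a single group, so these counts and the median are a description. MuLV-int_75, the most abundant in IP, had 253 in IP and 380 in INPUT (-0.59), and MuLV-int_63 had 69.4 and 169 (-1.28). RLTR4_MM-int_428 had 39.7 and 38.8 (0.03). Among the other names, RLTR41C_107 held 81.7% of the RLTR41C locus signal in IP, with 89.4 in IP and 97.6 in INPUT (-0.12). RLTR41_822 had 56.5 and 11.7 (2.18), and RLTR48A_384 had 16.7 and 42.3 (-1.29). The fall of RLTR41B from TOTAL to IP followed RLTR41B_71, which held 91.7% of the RLTR41B locus signal in TOTAL; without it the summed ratio of IP to TOTAL was -0.03 in place of -2.13.

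Locus sums cover the subfamily counts unevenly, although the scales of the tables differ and only the order carries meaning. The summed IP locus means amounted to 2.69% of the subfamily value for RLTR4_Mm, 5.49% for RLTR4_MM-int, 14.1% for LTRIS_Mm, 19.5% for MMVL30-int, 40.4% for MuRRS-int and 50.2% for MuLV-int. The subfamilies with the lowest shares are thus described at locus level by a small part of their signal, and the reason was not tested.

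Genes of a host list chosen for gammaretroviruses were read in the same way as loci, as authors' means without error. Whether each listed gene acts on these viruses was not checked. Of 20 listed genes 19 were found, *Trim5* being the exception. Against TOTAL, 8 of 19 with a mean of at least 10 were more than 2-fold higher in IP and 2 lower, beside 20.4% and 26.2% of all genes. Against INPUT, 4 of 18 were higher and 1 lower, beside 20.5% and 14.6%, and against BO 7 of 18 were higher and 2 lower, beside 43.9% and 11.2%. *Setdb1*, the histone methyltransferase that silences proviruses, had 18740 in IP and 6273 in INPUT (log2 ratio 1.58). *Mphosph8*, a subunit of the HUSH silencing complex, had 6424 and 1559 (2.04). *Trim28*, the corepressor recruited to proviral DNA, had 13491 and 8435 (0.68). The receptor genes *Slc7a1*, for ecotropic virus, and *Xpr1*, for xenotropic and polytropic virus, had -0.49 and 0.76. The restriction factor *Apobec3* had 95.6 and 195 (-1.02), and *Fv1*, itself derived from a retroviral *gag* gene, had 10.4 and 19.3 (-0.83).

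Cell type markers also differed between the groups. All 7 spermatocyte markers (such as *Sycp1* and *Sycp3*) were more than 2-fold higher in IP than in each other group, with a summed mean of 177550 in IP against 35031 in INPUT, 135442 against 16593 in BO and 176634 against 33407 in TOTAL. Of all genes, 20.5% were higher than in INPUT, 43.9% than in BO and 20.4% than in TOTAL. All 6 Leydig cell markers were more than 2-fold lower in IP than in TOTAL (summed mean 16685 against 91696), as were 4 of 6 Sertoli markers (24520 against 75027) and 3 of 4 macrophage and blood markers (1115 against 3197). These stand beside 26.2% of all genes lower than in TOTAL. Against INPUT, 5 of 6 Leydig and 3 of 6 Sertoli markers were lower, as were 3 of 4 macrophage and blood markers, beside 14.6% of all genes. Against BO, 2 of 6 Leydig markers were higher, beside 43.9% of all genes, and 2 of 6 Sertoli markers lower, beside 11.2%. Of the 4 macrophage and blood markers 3 were higher than in BO and 1 lower. Of 4 spermatogonial markers 0 passed 2-fold against TOTAL, 1 was lower against INPUT, and 2 were lower and 1 higher against BO. The 5 spermatid markers summed to 3.04 in IP against 116 in TOTAL, 3.05 against 29.0 in INPUT, and 2.32 against 1.42 in BO, where 3 of them were at 0, each pair being from a table of its own. The part of these cell types in the VL30 and MuRRS differences was not tested.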

How the data were processed

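RNA-seq libraries (TruSeq Stranded Total RNA with rRNA depletion) of TOTAL, INPUT, BO and IP from *Mael*-/- testes were analysed, with 3 libraries per group and 12 in all, grouped by the sample labels. Repeat reads were aligned by the authors (STAR 2.6.0c, mm10), assigned among copies with Telescope, added up per subfamily and normalized with EBSeq. The deposited signal per subfamily and library is upper-quartile normalized, and values were whole multiples of 1 step per library (100% within a tolerance of 0.1), which gave back whole reads. Reads of young copies depend on this reassignment, and a name shared by several copies cannot be resolved further.

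For genes and single loci, the authors ran DESeq2 1.24.0 on IP against each other group. The deposited signal there is the mean of normalized counts per group. The log2 fold changes with standard errors, the Wald statistic (a score), the p-value and the adjusted p-value in the same tables are the authors' own comparison and were not used. How reads were counted per locus is not given in the sources used here.

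The 1180 subfamilies whose mean over all libraries reached 10 were fitted as log2(value + 1) in limma 3.58.1 (R 4.3.3; 1 fit of 4 groups, trend), with Benjamini-Hochberg adjustment over all of them. A call needs an adjusted p under 0.05 and a log2 fold change past 1 in either direction. Fold changes on this scale understate those of low subfamilies. Locus and gene ratios are log2 of group means plus 1, within a table, with a mean of at least 10 and a 2-fold limit. Python 3.11.15 was used for these. Other settings tried were another pseudocount (0.1 or 10), the filter dropped or raised to 100, 3 scalings, a fit of the compared groups, a replicate block, edgeR 4.0.16 and DESeq2 1.42.0 on recovered reads, and each library left out. By rule, the 4 most abundant members and all called in an IP comparison are given by library, and the other tested members more briefly; MuLV-int, RLTR4_Mm, LTRIS2 and MuRRS4-int are also given by library, a choice made after their values were seen; named loci are the 3 with the highest IP mean per set and the 3 with the highest and lowest ratio to INPUT at a mean of at least 50. The loci LTRIS_Mm_264, LTRIS3_74 and RLTR41B_71 were named after their values were seen.

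Deviations of same-numbered INPUT and TOTAL libraries from their group means correlated at 0.63, 0.34 and 0.32 over subfamilies. TOTAL replicate 2 with INPUT replicate 3 gave 0.33, and TOTAL replicate 3 with INPUT replicate 2 gave 0.24. TOTAL replicate 1 gave -0.38 and -0.43 with INPUT replicates 2 and 3, and INPUT replicate 1 gave -0.51 and -0.44 with TOTAL replicates 2 and 3. Replicate 1 thus stood apart in both groups, and these values cannot tell whether replicates 2 and 3 are paired by number. A replicate block left INPUT against TOTAL at 0 member calls. Members and lists were chosen with earlier results of these data known. Where the labels name no separate cultures or animals per library, p-values measure only the spread between these samples. Intervals cover only that spread.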

Additional observations from a re-analysis of the deposited data

How the results depend on the processing

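On the scale of library totals, which follows 7SL and ribosomal RNA, the members called were 0 lower for IP against BO, 4 higher for IP against INPUT (10.9% of all subfamilies), 16 higher and 0 lower for IP against TOTAL, 11 higher for INPUT against TOTAL and 2 lower for BO against INPUT (1.78%). Signs turned on that scale for IP against TOTAL in MMVL30-int (0.37), RLTR6_Mm (0.44), MuLV-int (0.82), RLTR4_MM-int (0.68), RLTR4_Mm (0.73), LTRIS2 (1.17), LTRIS_Mus (1.14), MuRRS4-int (0.94), RLTR48A (1.21), RLTR48B (0.73), RLTR6-int (1.49), RLTR6B_Mm (1.13) and RLTR6C_Mm (0.35). They turned as well for IP against INPUT in RLTR4_Mm (0.042) and RLTR48A (0.0096). For IP against BO they turned in MuLV-int (0.45), RLTR4_MM-int (0.36) and RLTR6C_Mm (0.36). Only members with a limma adjusted p under 0.05 in the comparison, and some added by choice, were followed. The names are thus incomplete, and further members turned for IP against TOTAL, where 16 were called higher. Scaled to the other LTR subfamilies, which puts the median of all subfamilies at 0.24 for IP against BO and -0.25 for BO against INPUT, 0 members were lower in IP than in BO and 8 lower in BO than in INPUT (6.27% of all subfamilies), RLTR6C_Mm had 0.24 for IP against BO, and MuLV-int and RLTR4_MM-int had 0.33 and 0.24 for IP against BO. That pair also turned with edgeR (0.095 and 0.0080) and DESeq2 (0.090 and 0.0024), MuLV-int with the median ratio (0.081), and RLTR6C_Mm with DESeq2 (0.093). With a pseudocount of 10, BO against INPUT gave 3 lower. The cause of these changes was not tested. With single libraries left out, IP against INPUT gave 0 to 3 members lower, IP against TOTAL 2 to 3 lower and BO against INPUT 4 to 5 lower, and the other member counts did not move. The ratio of MMVL30-int to RLTR6_Mm then ranged from -0.032 to 0.21 for IP minus INPUT and from -0.14 to 0.021 for IP minus BO. IP against BO ranged from -0.16 to 0.079 in MuLV-int, from -0.0091 to 0.18 in RLTR6-int and from -0.80 to 0.48 in RLTR6C_Mm, and IP against TOTAL from -0.18 to 0.020 in RLTR6-int. With a mean of at least 50, 1 of 32 member loci was higher and 25 lower than in BO. For INPUT it was 1 and 13 of 32, and for TOTAL 1 and 23 of 37. The shares of all repeat loci at that mean were not counted. Some of these lower loci had an IP mean under 50 and passed only through the other group, so that the filter fixed their direction. Centring on the median repeat locus gave 17 higher and 44 lower for BO and 38 lower for INPUT, with no share of all repeat loci counted under that centring. Without its top locus the summed MuRRS-int ratio was 0.75, 0.27 and 0.46 against BO, INPUT and TOTAL. Over 55 fold changes of members and their alternatives, 853 of 924 values kept direction and side of the threshold. On library totals 28 of the 55 did, while 18 reversed, 6 were weaker and 3 stronger. The 55 were selected as stated above for the signs, so they do not cover all member fold changes.

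With the replicate number as a replicate block, IP against INPUT gave 3 members higher, with LTRIS4B added at 1.19, and IP against BO gave 4 higher and 2 lower; no other count of member calls changed. Same-numbered libraries of IP and BO correlated at -0.01, 0.08 and 0.10, and those of IP and INPUT at -0.04, -0.13 and 0.05. Those of INPUT and BO correlated at 0.30, 0.06 and 0.56, and differently numbered ones ranged from -0.42 to 0.22. With 3 libraries per group, such values cannot tell whether libraries of the same number are paired. Depth limits the rarest members: LTRIS4B rests on 37 reads in BO, and the locus tables give no spread at all.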
